A study of Homo sapiens with 16 samples.

Results

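Aminoacyl-tRNA synthetases are the enzymes that join each amino acid to its transfer RNA, the step that lets a ribosome read the genetic code. One set works in the cytosol and another, also encoded in the nucleus, is imported into mitochondria to serve the mitochondrial ribosome. Their genes are named by the one-letter code of the amino acid, followed by ARS and a 1 for the cytosolic or a 2 for the mitochondrial enzyme. The members described here are the protein-coding genes of the count table whose GENCODE v44 symbol follows that pattern, together with EPRS1, which carries the glutamyl and prolyl enzymes in one chain, and FARSA and FARSB, the subunits of the cytosolic phenylalanyl enzyme. The rule found 37 of 43836 genes, 20 cytosolic and 17 mitochondrial. GARS1 and KARS1 also give the mitochondrial glycyl and lysyl enzymes and were counted once, as cytosolic.

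The libraries came from KG-1, an established myeloblast-like line of acute myeloid leukemia. The study's methods describe cells transduced with lentiviral particles and selected in puromycin. They carried either a non-target shRNA (control) or an shRNA against FOXM1 (FOXM1-KD), the forkhead transcription factor the study is about. A figure legend of the study names MK-2206 treatment and transduction as alternatives. Whether the cells labelled control MK-2206 carried the non-target shRNA is therefore not certain. Control cells received DMSO (0.3%, 48 h), the AKT inhibitor MK-2206 (30 µM, 24 h), STL427944 (50 µM, 48 h), cytarabine (AraC, 0.75 µM, 48 h) or the BCL-2 inhibitor venetoclax (100 nM, 48 h), and FOXM1-KD cells received DMSO, AraC or venetoclax under the same conditions. Each of the 8 conditions had 2 libraries, 16 in all, which the study's methods call biological replicates. The labels do not say whether the FOXM1-KD cells were a pool or 1 clone, and the MK-2206 treatment was shorter than the vehicle treatment it is set against.

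Total counts ranged from 7351755 to 21362546 per library, with a median of 18106217.5. The MK-2206 libraries were the shallowest and the mitochondrial genome took 6.68% and 18.4% of their counts, against 1.32% to 3.05% in the other libraries. Defining markers separated the libraries into sets that coincide with the labels, namely control other than MK-2206, control MK-2206 and FOXM1-KD. CD34, the stem and progenitor antigen of KG-1, had 12483 to 28951 counts in the control libraries other than those labelled MK-2206, only 7 and 18 counts with MK-2206 and 0 to 4 counts in FOXM1-KD cells. MPO, the granule peroxidase of neutrophil precursors, had 5 to 242 counts in the first set, 3888 and 3424 counts with MK-2206 and 28881 to 155753 counts in FOXM1-KD cells. The granule markers MPO, ELANE, AZU1 and PRTN3 together stood at 0.555 to 13.0 CPM in the first set, 349 to 568 CPM in the MK-2206 libraries and 1909 to 13620 CPM in the FOXM1-KD libraries. The myeloid blast list (PTPRC, CD33, SPI1, CEBPA, MYB and CD34) stood at 1702 to 2200 CPM in the first set, 616 to 1141 CPM in the MK-2206 libraries and 1468 to 2056 CPM in the FOXM1-KD libraries. This sum mixes opposite changes, since CEBPA went the other way from CD34. CEBPA had 486 and 480 counts in control DMSO, 7161 and 4416 with MK-2206 and 12849 and 14601 in FOXM1-KD DMSO. Whether these 3 sets were grown from the same cell stock is not known here, so in the libraries labelled MK-2206 an effect of the drug and a difference between cell stocks cannot be told apart, and the words rose, fell, higher and lower below describe those libraries and not the drug. Since the libraries labelled control MK-2206 shared the near absence of CD34 with the FOXM1-KD libraries, each MK-2206 result below is given against the control DMSO libraries and, as a comparison chosen after these markers were seen, against the FOXM1-KD DMSO libraries. FOXM1 itself had 2554 and 2515 counts in the control DMSO libraries and 923 and 1551 in the FOXM1-KD DMSO libraries, 3497 and 3284 against 2057 and 2161 with AraC, and 1883 and 2599 against 740 and 955 with venetoclax.

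When amino acids run short, uncharged transfer RNA activates the kinase GCN2, the product of EIF2AK4, and translation of the transcription factor ATF4 rises. ATF4 pairs with C/EBP proteins on a DNA element that begins with the letters TGATGNAA, and several cytosolic synthetase genes are among its known targets. RefSeq promoter windows of GRCh38.p14, from 250 bases before to 50 bases after a gene start, were held for 30 of the 37 members, 9 of them with 2 windows, and not for the other 7, LARS1, VARS1, YARS1, AARS2 and VARS2 among them. The 8 letters TGATGNAA occurred, on either strand, in the windows of 7 of 16 cytosolic genes (43.8%) and 1 of 14 mitochondrial genes (7.14%), against 4.46% of all 27305 genes with windows and 3.60% of 15842 protein-coding genes. The 30 bases around each match are printed because these promoters are followed through the results, 5′ to 3′ on the strand that holds the letters, with the matched letters in capitals.
AARS1, chr16:70289675-70289704, plus strand: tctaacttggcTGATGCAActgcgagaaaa
CARS1, chr11:3057407-3057436, plus strand: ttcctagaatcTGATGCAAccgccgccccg
GARS1, chr7:30594834-30594863, minus strand: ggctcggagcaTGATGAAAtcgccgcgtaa
IARS1, chr9:92293692-92293721, plus strand: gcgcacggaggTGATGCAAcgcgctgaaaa
MARS1, chr12:57488053-57488082, minus strand: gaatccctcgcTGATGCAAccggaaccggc
NARS1, chr18:57621804-57621833, minus strand: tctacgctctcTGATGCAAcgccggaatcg
TARS1, chr5:33440956-33440985, minus strand: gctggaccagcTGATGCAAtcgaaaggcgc
YARS2, chr12:32756076-32756105, minus strand: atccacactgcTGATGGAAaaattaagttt
In CARS1 and MARS1 the match spans the gene start, in IARS1 and GARS1 it lies within 33 bases before it, and in TARS1 and NARS1 it lies within 21 bases after it. The AARS1 match begins 187 bases and the YARS2 match 197 bases before the start. A match of letters is a description of the sequence and not a measured binding site.

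Per kb of the canonical transcript, cytosolic synthetase genes were the more abundant set. In the control DMSO libraries the 20 cytosolic genes summed to 1887 and 1923 CPM per kb and the 17 mitochondrial genes to 310.5 and 293.7 CPM per kb. CPM scale each count to a common library total, after TMM adjustment over the 16 libraries, and dividing them by transcript length allows levels of different genes to be set side by side. By the median of the 16 libraries, FARSA (127.4 CPM per kb) and IARS1 (126 CPM per kb), the isoleucyl enzyme, were highest. The 15 highest members were all cytosolic. CARS2, the mitochondrial cysteinyl enzyme, followed at 50.24 CPM per kb and was the highest of its set. The lowest cytosolic members were FARSB at 16.76 CPM per kb and HARS1 at 20.17 CPM per kb. Per kb, the subunits of the phenylalanyl enzyme thus stood at opposite ends of their set. Much of this distance comes from the length used, 6761 bases for FARSB and 1811 for FARSA. In control DMSO, FARSB had 2145 and 2440 counts and FARSA 4354 and 4335. SARS2, the mitochondrial seryl enzyme, was lowest at 2.772 CPM per kb, and its count is uncertain because 1492 bases of its exons are shared with an overlapping gene on the same strand. The ranges over libraries of most neighbours in this order overlapped, so only distant ranks were separated.

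**Figure D1:**
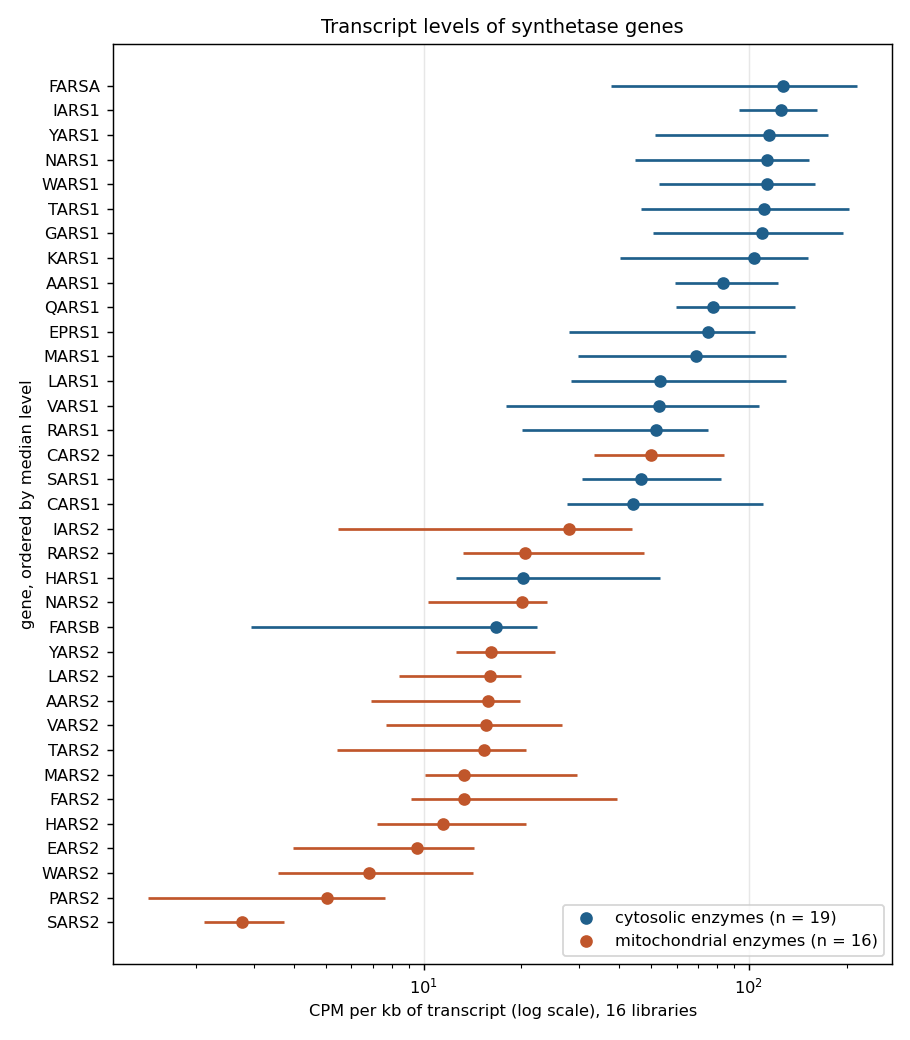
Level of the synthetase genes shown in CPM per kb of transcript (log scale), as the median (point) and range (line) of 16 libraries, in blue for cytosolic and in orange for mitochondrial enzymes. FARSA leads at 127.4 and SARS2 is lowest at 2.772 CPM per kb, and the 15 highest members are cytosolic.

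Nearly all members varied across the conditions. By edgeR's quasi-likelihood test of any difference among the 8 conditions, 33 of 37 members passed at an adjusted p below 0.1, against 51.0% of 32000 genes. They were 19 of 20 cytosolic and 14 of 17 mitochondrial members. The 32000 genes include all with at least 1 count in total, so their share is not that of genes measured as deeply as the members. The 4 that did not pass were IARS1 (adjusted p = 0.567), CARS2 (adjusted p = 0.142), YARS2 (adjusted p = 0.462) and SARS2 (adjusted p = 0.989). In the comparisons below, a member is said to be called when it changed at least 2-fold with an adjusted p below 0.1 over all genes tested, and to have passed when the adjusted p alone was below 0.1. Every member had at least 29 counts in every library and was tested in every comparison.

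**Figure D2:**
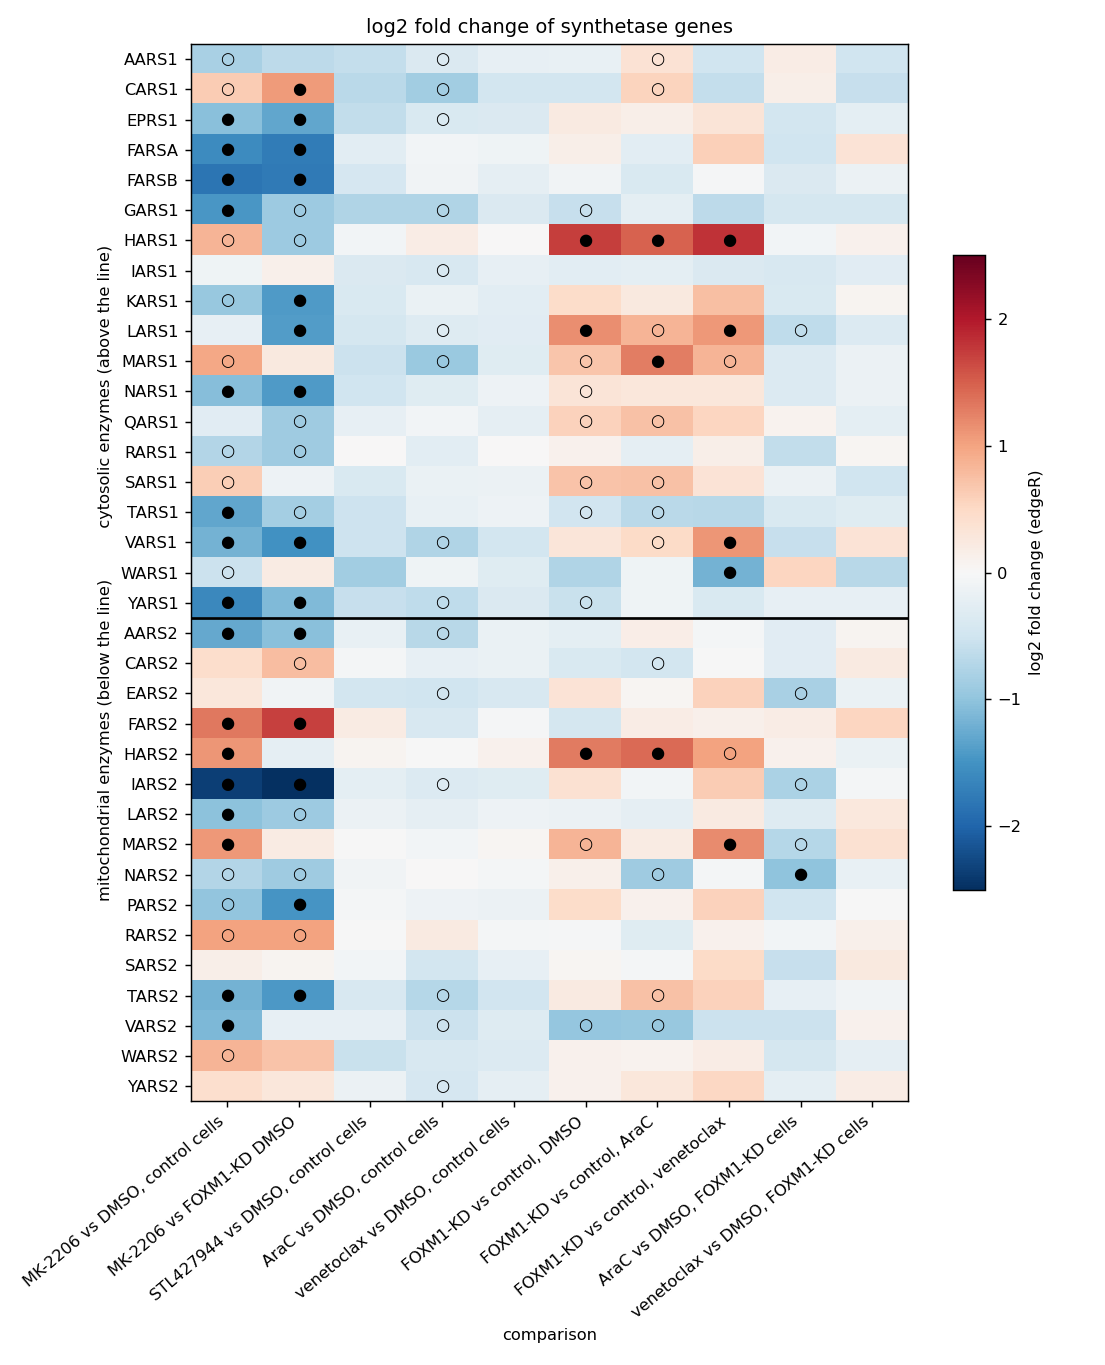
Color gives the log2 fold change of the synthetase genes shown (rows, cytosolic above and mitochondrial below the line) in 10 comparisons (columns), red for higher and blue for lower in the group named first, with filled circles for changes of at least 2-fold with an adjusted p below 0.1 and open circles for an adjusted p below 0.1 alone. The MK-2206 columns hold the most filled circles, and HARS1 is filled in all 3 columns that set FOXM1-KD against control cells.

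Most calls among the synthetase genes were made in the libraries labelled MK-2206. Against control DMSO, 15 of 37 members were called lower and 3 higher, beside 17.9% of all 28905 genes tested called lower and 26.0% called higher. Well-measured protein-coding genes, those with a mean of at least 10 counts, are closer to the members in depth, and of these 33.7% were called lower and 25.6% higher. The 40.5% of members called lower was thus above the 17.9% of all genes and nearer to that of well-measured genes. The median log2 fold change was -0.87 for cytosolic members and 0.14 for mitochondrial members, against -0.29 for well-measured protein-coding genes. That last median was -0.183 with DESeq2's size factors and -0.512 with total counts only, so the scaling sets where 0 lies and each change is best read relative to it.

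Of the cytosolic members 9 were called lower, FARSB, YARS1, FARSA, GARS1, TARS1, VARS1, NARS1 and EPRS1 among them. Both subunits of the phenylalanyl enzyme fell. FARSB went from 117.6 and 134.1 CPM in control DMSO to 19.85 and 47.39 CPM (log2 fold change -1.82, SE 0.29, adjusted p = 1.13e-09). FARSA went from 238.6 and 238.2 CPM to 85.12 and 68.31 CPM (log2 fold change -1.57, SE 0.27, adjusted p = 3.69e-08). The treated libraries lay below both vehicle libraries for both genes, but those of FARSB differed from each other more than 2-fold, and its log2 fold change was between -2.63 and -1.36 with 1 library left out. YARS1, the tyrosyl enzyme, fell from 424.3 and 429.1 to 126.1 and 138.9 CPM, a log2 fold change of -1.62 (SE 0.26). GARS1 fell by 1.45, TARS1, the threonyl enzyme, by 1.29, VARS1, the valyl enzyme, by 1.18, NARS1, the asparaginyl enzyme, by 1.07 and EPRS1 by 1.04 on the log2 scale.

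Of the mitochondrial members 6 were called lower. IARS2, the isoleucyl enzyme of mitochondria, stood at 114.2 and 105.5 CPM in control DMSO and 19.28 and 21.5 CPM after MK-2206 (log2 fold change -2.36, SE 0.30, adjusted p = 2.03e-14). Its treated libraries were the lowest of the 16. AARS2 (-1.27), TARS2 (-1.18), VARS2 (-1.13) and LARS2 (-1.02) were called lower too, for the alanyl, threonyl, valyl and leucyl enzymes. The 3 members called higher were also mitochondrial. FARS2, the phenylalanyl enzyme, rose from 24.44 and 21.81 to 66.27 and 43.34 CPM (log2 fold change 1.31, SE 0.29), HARS2, the histidyl enzyme, from 18.31 and 18.51 to 39.56 and 35.95 CPM (log2 fold change 1.10, SE 0.30), and MARS2, the methionyl enzyme, from 38.31 and 34.61 to 89.69 and 58.25 CPM (log2 fold change 1.08, SE 0.29). Phenylalanyl enzymes of the compartments therefore moved in opposite directions, with FARSA and FARSB lower and FARS2 higher.

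Among members that passed without reaching 2-fold, MARS1 (log2 fold change 0.97), HARS1 (0.84), CARS1 (0.64) and SARS1 (0.61) were higher in the cytosolic set, and RARS2 and WARS2 (0.85) in the mitochondrial set, where RARS2 lay just under 2-fold. KARS1 (-0.94), AARS1 (-0.81), RARS1 (-0.74), WARS1 (-0.53), PARS2 (-0.98) and NARS2 (-0.73) were lower. In all, 21 members passed lower and 9 higher, against 21.9% and 28.8% of all genes tested. Of the 7 cytosolic genes with TGATGNAA in a promoter window, MARS1 and CARS1 passed higher, AARS1, GARS1, NARS1 and TARS1 passed lower, and IARS1 (-0.11, adjusted p = 0.696) did not pass.

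Against FOXM1-KD DMSO in place of control DMSO, 14 members were called lower and 2 higher, beside 14.6% and 22.2% of 28515 genes. These results share the MK-2206 libraries with those above. IARS2 (-2.77), FARSB (-1.76) and FARSA (-1.75) were again among the lowest, and FARS2 (1.71) was the highest. The rises of the histidyl and methionyl genes were not seen with this reference. HARS2 was at -0.22 on the log2 scale (adjusted p = 0.638), MARS2 at 0.20 (adjusted p = 0.652) and MARS1 at 0.24 (adjusted p = 0.573), and HARS1 passed lower at -0.91 (adjusted p = 0.0349). LARS1, which did not pass against control DMSO (-0.20, adjusted p = 0.513), was called lower at -1.40 (adjusted p = 0.000335). CARS1 was called higher at 1.07 (adjusted p = 0.00861). Against control DMSO, 11 members were called without control DMSO replicate 2, 0 of them higher, and 12 without replicate 1, 1 of them higher. The balance of the calls also moved with the scaling, to 1 higher and 19 lower with total counts only and to 5 higher and 12 lower with DESeq2's size factors, and to 6 higher and 11 lower after edgeR's filter on low counts.

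Synthetases fall into class I and class II by the fold of the catalytic domain. The counts of this paragraph are to be read beside the 17.9% of all genes and 33.7% of well-measured protein-coding genes called lower, and several of them lie near those shares. Of 10 cytosolic class II genes 6 were called lower (median log2 fold change -1.18), and of 9 class I genes 2 (median -0.28) with MK-2206, a difference that was not tested. Several cytosolic enzymes are held together in the multi-synthetase complex by the scaffold proteins AIMP1, AIMP2 and EEF1E1. Of its 8 enzyme genes 2 were called lower, EPRS1 among them (median -0.51), while all 3 scaffold genes were, EEF1E1 at -2.19, AIMP1 at -1.18 and AIMP2 at -1.14. In mitochondria, glutaminyl-tRNA is made by the amidotransferase GATB, GATC and QRSL1 from glutamyl-tRNA that EARS2 supplies, and MTFMT formylates the initiator. GATC (-2.02), QRSL1 (-1.5) and MTFMT (-1.5) were called lower, and EARS2 was not (0.29, adjusted p = 0.415). Of 9 mitochondrial translation factor genes, 4 were called lower (MTRF1, MRRF, GFM2 and TSFM, median of the list -0.98). Of the 4 cytosolic elongation factor genes tested, EEF1B2 was called higher at 1.16 (median of the list 0.74).

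Of 24 amino acid response genes that are not synthetases 13 were called higher and 2 lower with MK-2206, beside 26.0% and 17.9% of all genes, with a median log2 fold change of 1.33. DDIT3 (6.30), ATF3 (6.03) and CEBPB (4.35), which encode transcription factors of the stress response, rose most among those with counts in every library, and the serine synthesis genes PSAT1 (-1.69) and PSPH (-1.42) fell. ATF4 was called higher (2.02), and the sensor kinase gene EIF2AK4 (-2.91) and EIF2S1 (-2.28), which encodes the kinase's substrate, were called lower. Against FOXM1-KD DMSO, 10 of the 24 genes were called higher and 2 lower, beside 22.2% and 14.6% of all genes. What the lower sum of the myeloid blast markers and the higher mitochondrial share of the MK-2206 libraries contributed to these values was not tested. DDIT3 also bears on MARS1, because 874 exon bases of MARS1 are shared with genes on the opposite strand, ARHGAP9 and DDIT3. The larger part of them is shared with ARHGAP9, whose counts were not examined here. DDIT3 went from 120 and 122 counts to 2719 and 5237, beside 3309 and 3074 counts of MARS1 in control DMSO and 2550 and 2527 with MK-2206, and reads of the shared stretch cannot be told apart without the strand setting.

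**Figure D3:**
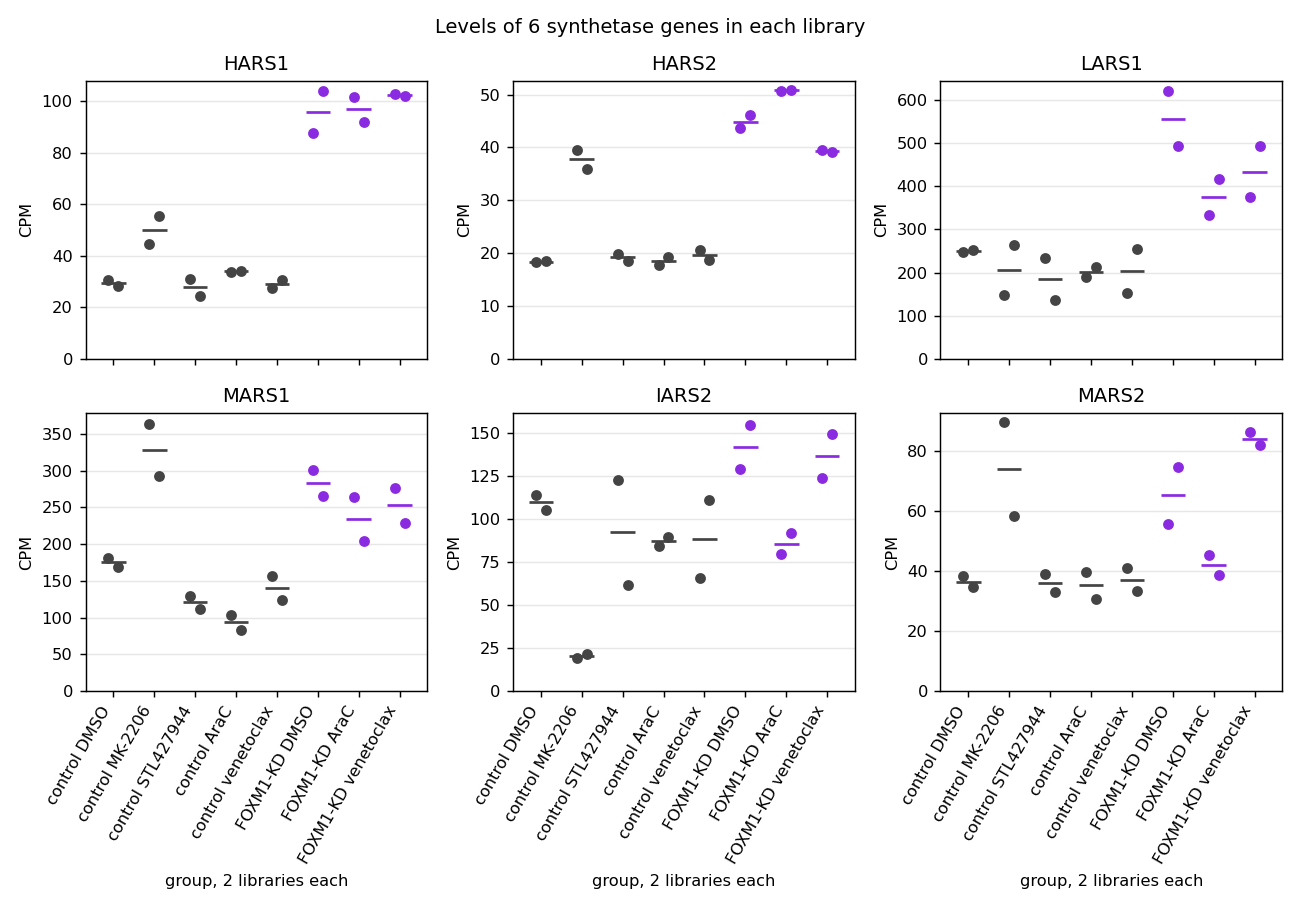
Level in CPM of HARS1, HARS2, LARS1, MARS1, IARS2 and MARS2 in each of 16 libraries (points) with the mean of the 2 libraries of a group (line), control cells in grey and FOXM1-KD cells in purple. HARS1 lies at 87.74 to 103.9 CPM in the 6 FOXM1-KD libraries and at 24.53 to 55.48 CPM in the 10 control libraries, and IARS2 is lowest in the MK-2206 libraries.

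In FOXM1-KD cells the histidyl genes showed the largest rise. With DMSO, HARS1, HARS2 and LARS1 were called higher and no member lower, beside 11.3% and 13.7% of all 23274 genes. The 8.11% of members called higher was thus no more than the share of all genes. HARS1, the cytosolic histidyl enzyme, stood at 30.53 and 28.24 CPM in control DMSO and 87.74 and 103.9 CPM in FOXM1-KD DMSO (log2 fold change 1.72, SE 0.14, adjusted p = 0.00377). HARS2 stood at 18.31 and 18.51 CPM and at 43.58 and 46.09 CPM (log2 fold change 1.29, SE 0.12, adjusted p = 0.00444). LARS1, the leucyl enzyme, stood at 246.6 and 251.6 CPM and at 620 and 493.6 CPM (log2 fold change 1.17, SE 0.14, adjusted p = 0.00791). All FOXM1-KD libraries lay above all control DMSO libraries for these genes.

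The same direction was seen for the histidyl genes under both drugs. With AraC, HARS1 stood at 33.91 and 34.18 CPM in control and 101.8 and 91.86 CPM in FOXM1-KD cells (log2 fold change 1.47, SE 0.22). HARS2 stood at 17.73 and 19.25 against 50.67 and 50.9 CPM (log2 fold change 1.42, SE 0.24). With venetoclax, HARS1 stood at 27.4 and 30.79 against 102.9 and 101.9 CPM (log2 fold change 1.81, SE 0.41), and HARS2 at 20.58 and 18.74 against 39.49 and 39.05 CPM, which passed (adjusted p = 0.0751) just under 2-fold. Over the whole series, the 6 FOXM1-KD libraries held HARS2 at 39.05 to 50.9 CPM, the MK-2206 libraries at 39.56 and 35.95 CPM and the other 8 control libraries at 17.73 to 20.58 CPM.

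HARS1 and HARS2 are neighbours on chromosome 5, transcribed away from each other. Their RefSeq starts, at 140691370 on the minus strand and 140691455 on the plus strand, are separated by 84 bases, printed here in full because the 2 genes that rose together start from its ends (GRCh38.p14, chr5:140691371-140691454, plus strand, HARS1 to the left and HARS2 to the right).
HARS1 to HARS2: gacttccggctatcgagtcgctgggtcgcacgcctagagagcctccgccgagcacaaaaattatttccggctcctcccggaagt
The GENCODE v44 exons of the pair overlap by 108 bases on opposite strands, and the strand setting of the counting is not given in the sources used here, so reads of that stretch cannot be assigned. HARS1 exons share 1198 bases in all with genes on the opposite strand, WDR55 and HARS2, beside a canonical transcript of 1948 bases, and 176 bases with DND1 on the same strand. HARS2 exons share 152 bases with ZMAT2 on the same strand. The counts of both genes are therefore uncertain.

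LARS1 lies further along chromosome 5, from 146110566 to 146182696. Genes beside LARS1, and less so beside HARS1, leaned the same way in FOXM1-KD cells, a comparison made after the members' values were seen. Of 49 well-measured protein-coding genes within 5 Mb of LARS1 that are no members, 40 had a log2 fold change above 0 in FOXM1-KD against control DMSO, 34 of them passed higher, and their median was 1.28, against 50.9% of all well-measured protein-coding genes above 0. Within 5 Mb of HARS1, 45 of 69 genes were above 0, 31 passed higher and 12 lower, and the median was 0.31. Of all well-measured protein-coding genes 26.7% passed higher and 28.3% lower. The windows around HARS1 and LARS1 overlap, so genes of the shared stretch count in both, here and in the MK-2206 values below. RARS1, the arginyl enzyme, from 168486451 to 168519301, was near 0 (0.11, adjusted p = 0.553), and 5 of its 24 neighbours were above 0 (median -0.82). Around MARS1, on chromosome 12 from 57475445 to 57517569, 99 of 109 genes were above 0 with a median of 1.26. MARS1 itself, the cytosolic methionyl enzyme, passed higher at 0.70. Neighbourhoods of other members that were not called leaned as well, in either direction. Above 0 were 30 of 36 genes around KARS1, 15 of 18 around NARS1 and 23 of 28 around WARS2. Around VARS2 only 55 of 206 genes were above 0, and around AARS2 11 of 64. In the MK-2206 libraries against control DMSO, 32 of 49 neighbours of LARS1 (median 1.12) and 70 of 109 of MARS1 (median 0.74) were above 0. Around HARS1 39 of 69 were (median 0.27) and around RARS1 6 of 24 (median -1.40), against 43.5% of all well-measured protein-coding genes. What the neighbourhoods contribute to the members' values was not tested, and a difference between the cells that was present before the shRNA cannot be told apart from one that followed it.

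The other members changed less in FOXM1-KD cells with DMSO. MARS2 (0.85), SARS1 (0.71), MARS1 (0.70), QARS1 (0.58), the glutaminyl enzyme, and NARS1 (0.32) passed higher. VARS2 (-0.96), GARS1 (-0.57), YARS1 (-0.55) and TARS1 (-0.48) passed lower. In all 8 members passed higher and 4 lower, beside 17.9% and 19.6% of all genes. The median over all members was 0.11, against 0.02 for well-measured protein-coding genes. The monocyte markers CD14, LYZ, CSF1R and CD68 together stood at 15.5 to 18.8 CPM in control DMSO and 567 to 1248 CPM in FOXM1-KD DMSO. LYZ gave most of this, while CD14, the defining marker, had 15 and 7 counts in FOXM1-KD DMSO, and the part of these cells in the members' values was not tested.

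With AraC, 3 members were called higher in FOXM1-KD than in control cells, HARS1, HARS2 and MARS1, and none lower, beside 15.2% and 14.0% of 24653 genes. MARS1 stood at 103.6 and 83.67 CPM in control and 263.8 and 204.2 CPM in FOXM1-KD cells (log2 fold change 1.28, SE 0.19, adjusted p = 2.88e-10). DDIT3, which shares exon bases with MARS1 on the opposite strand, had 204 and 240 counts in control and 1489 and 1481 in FOXM1-KD cells. Of 109 well-measured protein-coding genes within 5 Mb of MARS1, 100 were above 0 (median 1.43), against 48.9% of all such genes. What the overlap or the neighbourhood contributed to the MARS1 call was not tested. By the adjusted p alone 10 members were higher and 5 lower (21.9% and 21.4% of all genes). LARS1 (0.85), TARS2 (0.74), SARS1 (0.74), QARS1 (0.73), CARS1 (0.56), VARS1 (0.48) and AARS1 (0.37) made up the rest of the higher group. VARS2 (-0.95), NARS2 (-0.89), TARS1 (-0.67) and CARS2 (-0.45) were in the lower group. Without FOXM1-KD AraC replicate 1, 5 members were called, 4 higher and 1 lower.

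With venetoclax, 4 members were called higher in FOXM1-KD than in control cells and 1 lower, beside 10.8% and 13.5% of 24947 genes. HARS1 led, followed by MARS2 (log2 fold change 1.18, SE 0.40), VARS1 (1.10, SE 0.36) and LARS1 (1.09, SE 0.36). MARS2 stood at 41.04 and 33.33 CPM in control and 86.23 and 82.17 CPM in FOXM1-KD cells. VARS1 stood at 150.8 and 204.9 against 443 and 318.5 CPM. Its groups did not overlap, and neither did those of MARS2. By the adjusted p alone, HARS2 and MARS1 (0.85, adjusted p = 0.0824) were added to the higher group, 6 members in all against 11.7% of genes, and no member was added to the lower group, against 14.3% of genes. Without FOXM1-KD venetoclax replicate 1, or without replicate 2, only 2 members were called.

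The member called lower with venetoclax was WARS1, the cytosolic tryptophanyl enzyme, a gene known to be induced by interferon. It stood at 376.7 and 269.9 CPM in control and 145.4 and 140.1 CPM in FOXM1-KD cells (log2 fold change -1.18, SE 0.36, adjusted p = 0.00747). Of the 10 interferon-induced genes listed beside it, 9 were tested and 6 were called lower, beside 13.5% of all genes. Among them were TAP1 (-2.12), GBP2 (-1.91) and IRF1 (-1.19). GBP1 had 394 and 315 counts in control and 2 and 0 in FOXM1-KD cells. With DMSO, WARS1 was at 382.7 and 421.8 against 310.7 and 160.8 CPM, which did not pass (-0.76, SE 0.33, adjusted p = 0.175). There 3 of the 10 listed genes were called lower, beside 13.7% of all genes. With AraC, WARS1 was at 397 and 356.7 CPM in control and 380.2 and 339.6 CPM in FOXM1-KD cells (log2 fold change -0.11, SE 0.17, adjusted p = 0.638). Of the 9 listed genes tested 2 were called higher and 2 lower, beside 15.2% and 14.0% of all genes. The FOXM1-KD DMSO libraries lay far apart in WARS1, and this spread limits what could be detected.

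With AraC, many synthetase genes of control cells fell by less than 2-fold. No member was called, beside 4.52% of 22842 genes called higher and 2.17% lower, but 16 of 37 passed lower and none higher, against 9.17% and 10.2% of all genes. Of well-measured protein-coding genes 14.1% passed lower. DESeq2 counted 17 members lower and none higher at the same adjusted p, and 19 members had an unadjusted p below 0.05 in edgeR. Of the 37 log2 fold changes 34 were below 0, with a median of -0.32 against 0.01 for well-measured protein-coding genes.

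MARS1 and CARS1, the cysteinyl enzyme, showed the lowest values. MARS1 stood at 181.4 and 168.9 CPM with DMSO and 103.6 and 83.67 CPM with AraC (log2 fold change -0.92, SE 0.14, adjusted p = 0.000213). CARS1 stood at 162.4 and 171.4 and at 100.6 and 85.14 CPM (log2 fold change -0.86, SE 0.13, adjusted p = 0.000271). For both genes the AraC libraries lay below both DMSO libraries. GARS1 (-0.76), VARS1 (-0.75), YARS1 (-0.64), IARS1 (-0.40), EPRS1 (-0.38), AARS1 (-0.36) and LARS1 (-0.32) were the other cytosolic members that fell. TARS2 (-0.71), AARS2 (-0.70), VARS2 (-0.54), EARS2 (-0.50), YARS2 (-0.42) and IARS2 (-0.35) were among the 7 mitochondrial ones. IARS1 and YARS2 passed in this fit of the control AraC and DMSO libraries, but not in the test of any difference among the 8 conditions. At the other end RARS2 (0.23, adjusted p = 0.42) and HARS1 (0.19, adjusted p = 0.487) did not pass.

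Several cytosolic genes with the amino acid response letters were in this group. Of the 7 with TGATGNAA in a promoter window 5 fell (MARS1, CARS1, GARS1, IARS1 and AARS1, median of the 7 -0.40), and of the 9 with windows that lack it 1 fell (EPRS1, median -0.11). Among the 4 cytosolic genes for which no window was held, VARS1, YARS1 and LARS1 fell. These counts were not tested. The response genes that are not synthetases also leaned down in control cells. Of the 23 tested, 12 passed lower and 2 higher, beside 9.17% and 10.2% of all genes, with a median of -0.35. CHAC1 (-1.27), PSAT1 (-1.06) and ASNS (-1.03), the asparagine synthetase gene, were called lower.

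**Figure D4:**
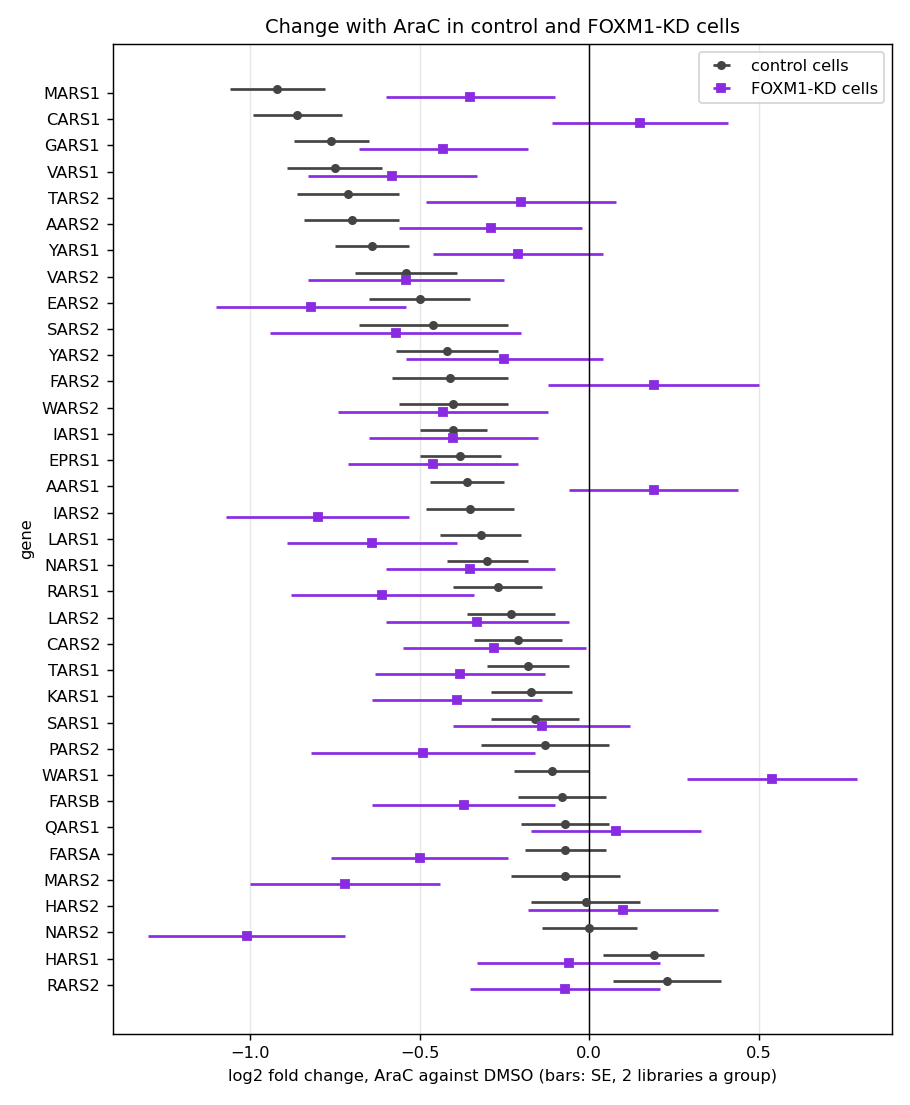
Log2 fold change of the synthetase genes shown with AraC against DMSO in control cells (grey) and FOXM1-KD cells (purple), with its SE, ordered by the value in control cells. MARS1 (-0.92) and CARS1 (-0.86) are lowest in control cells, where CARS1 in FOXM1-KD cells is at 0.15, and NARS2 is at -1.01 in FOXM1-KD cells.

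In FOXM1-KD cells 31 of 37 log2 fold changes with AraC were below 0, with a median of -0.37 (cytosolic -0.38, mitochondrial -0.33). NARS2, the mitochondrial asparaginyl enzyme, was the member called lower and none was called higher, beside 2.57% and 9.03% of 23381 genes. NARS2 stood at 50.46 and 60.22 CPM with DMSO and 25.95 and 32.06 CPM with AraC (log2 fold change -1.01, SE 0.29, adjusted p = 0.00589). EARS2 (-0.82), IARS2 (-0.80), MARS2 (-0.72) and LARS1 (-0.64) passed lower as well, so 5 members passed lower, beside 5.44% of all genes, and 4 of them were mitochondrial. EARS2, IARS2 and LARS1 had also passed lower in control cells. WARS1 (0.54, adjusted p = 0.168), AARS1 (0.19, adjusted p = 0.677) and FARS2 (0.19, adjusted p = 0.73) had the highest values and did not pass. NARS2 was at 2-fold almost exactly, and its call was lost without FOXM1-KD AraC replicate 1 or 2 or FOXM1-KD DMSO replicate 2, while 3 members were called without FOXM1-KD DMSO replicate 1. Of the 24 response genes 9 were called higher, among them ATF3 (3.55), CHAC1 (1.87) and CEBPB (1.76), and none lower. The FOXM1-KD DMSO libraries lay far apart in these named genes, as in CEBPB at 45.91 and 18.61 CPM.

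The difference between the cells was tested with the interaction term. CARS1 was called, with an AraC change 1.09 higher (log2, SE 0.27, adjusted p = 0.00208) in FOXM1-KD than in control cells, beside 3.94% of 26059 genes called higher and 1.19% lower. In FOXM1-KD cells CARS1 stood at 150.4 and 90.91 CPM with DMSO and 151 and 130.1 CPM with AraC, a change that did not pass (0.15, adjusted p = 0.756). WARS1 (0.73, SE 0.24, adjusted p = 0.0518) also passed higher and NARS2 (-0.93, SE 0.30, adjusted p = 0.0445) lower, against 4.75% and 1.91% of all genes. The lowest after NARS2 was MARS2 (-0.56, adjusted p = 0.428). The CARS1 call was lost without either control AraC library, without FOXM1-KD AraC replicate 1 or without FOXM1-KD DMSO replicate 2, and its value stayed between 0.63 and 1.5 with 1 library left out. Without FOXM1-KD DMSO replicate 1, 3 members were called, and without FOXM1-KD AraC replicate 2, 2 were. The FOXM1-KD DMSO libraries differed in both CARS1 and WARS1, and the first of them was the higher in each.

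The same term for the other lists gave larger values. Of the 24 amino acid response genes 9 were called higher and none lower (median 0.86), beside 3.94% and 1.19% of all genes. ATF3 (3.29), CHAC1 (3.21), SESN2 (2.14) and SLC7A11 (1.82) led. The FOXM1-KD DMSO libraries lay far apart in these genes, which limits the precision of the values. ATF3 stood there at 7.775 and 3.164 CPM and CHAC1 at 7.616 and 2.057 CPM. SESN2 stood at 39.24 and 19.99 CPM and SLC7A11 at 62.3 and 26.95 CPM. Both FOXM1-KD AraC libraries lay above both of them in each gene. Of the 10 interferon-induced genes 4 were called higher, GBP2 (2.35), TAP1 (1.01), GBP1 and IFI30. GBP1 had 0 counts in both FOXM1-KD DMSO libraries and IFI30 had 4 and 0, so no size is given for them. For the members as a whole the median was 0.03. The 7 cytosolic genes with TGATGNAA had a median of 0.41, the 9 with windows that lack it -0.13. The AraC change itself had medians of -0.35 and -0.37 for these groups in FOXM1-KD cells. The knockdown difference had medians of -0.26 and 0.23 with DMSO, 0.28 and 0.15 with AraC and -0.50 and 0.35 with venetoclax. None of these splits was tested.

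**Figure D5:**
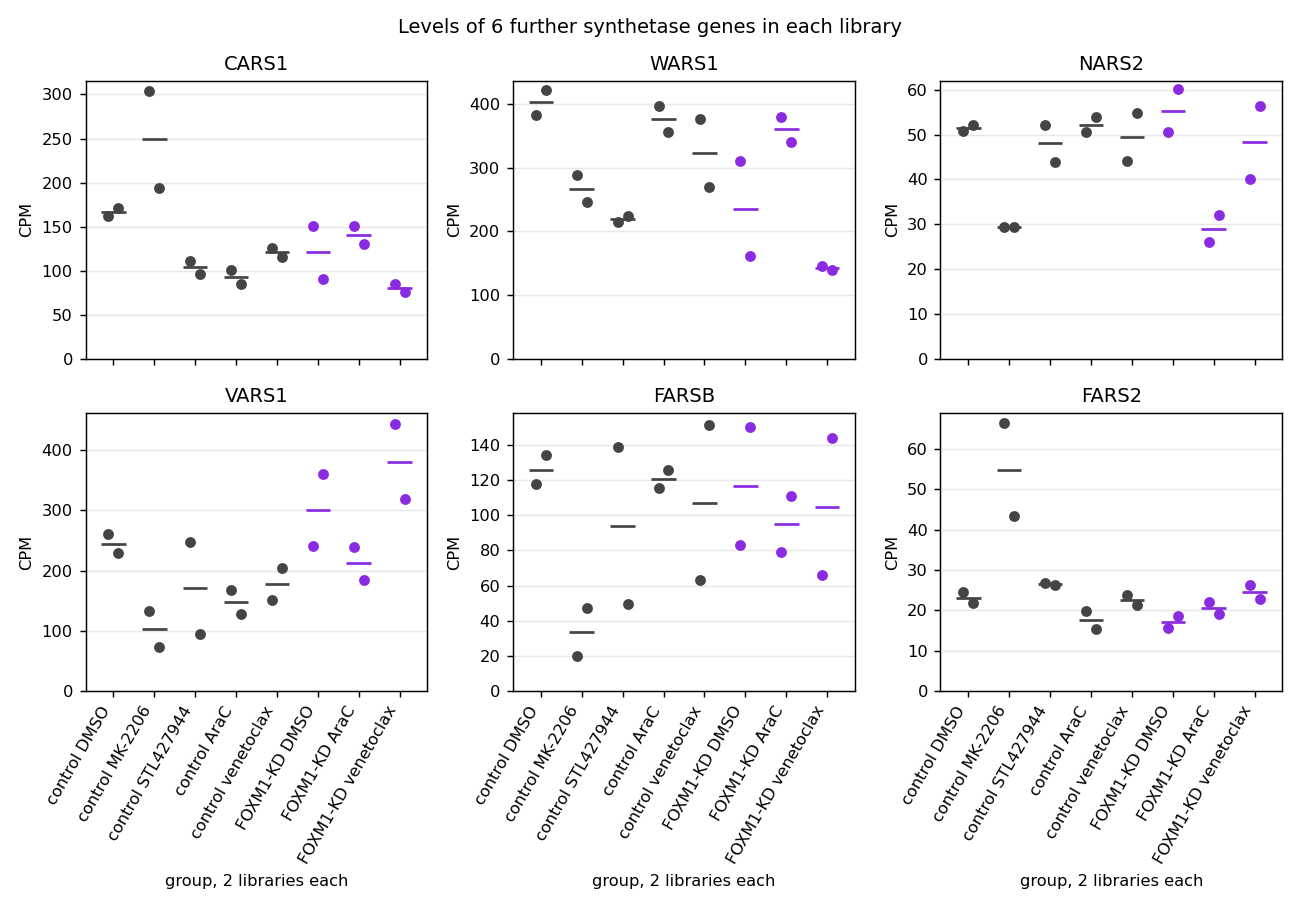
Level in CPM of CARS1, WARS1, NARS2, VARS1, FARSB and FARS2 in each of 16 libraries (points) with the mean of the 2 libraries of a group (line), control cells in grey and FOXM1-KD cells in purple. CARS1 is at 162.4 and 171.4 CPM in control DMSO and 100.6 and 85.14 CPM with AraC, and NARS2 is at 25.95 and 32.06 CPM in FOXM1-KD AraC.

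STL427944 and venetoclax gave no call among the members of control cells. For both drugs 0 members and 0% of all genes, of 22672 for STL427944 and 22593 for venetoclax, were called in either direction by edgeR, and DESeq2 called 0 members. With STL427944, 5 members had an unadjusted p below 0.05, the median was -0.46 for cytosolic and -0.15 for mitochondrial members, and 34 of 37 values were below 0. WARS1 (-0.86, adjusted p = 0.929) and GARS1 (-0.76, adjusted p = 0.929) were lowest, and FARS2 (0.20, adjusted p = 0.929) and HARS2 (0.07, adjusted p = 0.963) highest. The STL427944 libraries disagreed. In the first the members took 0.573% of all counts and in the second, the shallower at 12621145 counts, 0.42%. FARSB stood at 138.8 and 49.26 CPM and VARS1 at 248.1 and 95.33 CPM in them, where control DMSO held 117.6 and 134.1 CPM of FARSB. WARS1, at 214.1 and 224.3 CPM, was below both control DMSO libraries in each. Without the first STL427944 library 9 members were called, all lower.

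With venetoclax in control cells no member had an unadjusted p below 0.05. TARS2 (-0.47), CARS1 (-0.45) and VARS1 (-0.45) were lowest and HARS2 (0.11) and MARS2 (0.04) highest, each with an adjusted p of 1. The venetoclax libraries of control cells had the highest chi-square between replicates, 103.3 per degree of freedom over genes. MK-2206 had 70.51 and control DMSO 8.577. This value rises with depth, and the MK-2206 libraries were the shallowest, so it does not rank the groups by spread. The control venetoclax libraries held FARSB at 62.91 and 151.4 CPM and GARS1 at 254.3 and 460.4 CPM. FARSB was lower in the library numbered 1 than in that numbered 2 in all 5 conditions whose labels carry numbers. In FOXM1-KD cells venetoclax gave 0 calls among members, beside 1.51% and 0.578% of 23717 genes called higher and lower. DESeq2 called 0 there too, and 1 member had an unadjusted p below 0.05. FARS2 (0.54, adjusted p = 0.888) and MARS2 (0.38, adjusted p = 0.888) were highest and WARS1 (-0.70, adjusted p = 0.473) and CARS1 (-0.57, adjusted p = 0.844) lowest. The interaction with venetoclax gave 0 calls by either tool, against 0.481% higher and 0.261% lower of 26393 genes, with 1 member at an unadjusted p below 0.05. VARS1 (0.81, adjusted p = 0.919) and FARS2 (0.56, adjusted p = 1) were highest and WARS1 (-0.40, adjusted p = 1) and SARS1 (-0.35, adjusted p = 1) lowest.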

How the data were processed

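RNA-seq of KG-1 cells gave 1 table of counts per gene for 16 libraries. Per the labels and the study's methods, the authors aligned reads to hg38 with STAR and counted them with featureCounts, in versions not given in the sources used here, and deposited the raw counts. The labels name a TruSeq stranded kit and the study's methods a CORALL kit, which is stranded and adds unique molecular identifiers. Which was used is not settled here, and the strand setting and any use of the identifiers in counting are not given in either. Depth was 7351755 to 21362546 counts. Of 43836 genes, 43177 matched GENCODE v44. Each comparison was fitted on its own libraries, leaving out genes below 1 count in total, by the quasi-likelihood test of edgeR 4.0.16 with TMM scaling (R 4.3.3), and p-values were Benjamini-Hochberg adjusted over all genes tested. The tests of any difference and of the interactions used all libraries of the conditions involved. A call needed a 2-fold change and an adjusted p below 0.1, and a second reading the adjusted p alone. DESeq2 1.42.0, other scalings and filters and leaving out each library were alternatives. The fit was also tried on simulated counts, for AraC in control cells and for the AraC interaction only. Their spread was fixed and the same for every gene, so this does not cover groups whose libraries lay far apart. Tables and figures used Python 3.11.15, pandas 2.3.3 and matplotlib 3.10.9.

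Members and gene lists were chosen with earlier results of these data known. Called members were named in order of change, and where fewer than 3 were called, also those with the 2 highest and 2 lowest changes. Other lists were named up to 4 genes each where called. Genes named outside this order were picked with their values in view. Replicate numbers stand in the labels for the MK-2206, AraC and venetoclax groups, and not for the DMSO and STL427944 groups. Deviations of same-numbered libraries from their group means correlated at 0.481 to 0.791 in each of 10 group pairs over 11818 genes, so the numbers were taken as pairs and a blocked fit was added where both groups carry them. P-values measure the spread between 2 libraries a group. Values of 2 members and of 1 listed gene are not reported here one by one, though the members stay in all counts and medians.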

Additional observations from a re-analysis of the deposited data

Results flagged for a closer look

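The change of 3 members with AraC differed between FOXM1-KD and control cells by the test of that difference (edgeR's quasi-likelihood interaction term). For CARS1 the change was 1.09 higher on the log2 scale in FOXM1-KD cells (adjusted p = 0.00208), for WARS1 it was 0.73 higher (adjusted p = 0.0518), and for NARS2 the difference was -0.93 (adjusted p = 0.0445). With 1 library left out, the values ranged from 0.63 to 1.5 for CARS1, from 0.19 to 1.28 for WARS1 and from -1.08 to -0.79 for NARS2. The FOXM1-KD DMSO libraries stood at 150.4 and 90.91 CPM of CARS1, 310.7 and 160.8 CPM of WARS1 and 50.46 and 60.22 CPM of NARS2, so the spread was wide in the first pair of genes and narrow in NARS2.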

How the results depend on the processing

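For 50 named member changes, 490 alternative values were computed, of which 448 kept direction and side of the threshold, 32 kept direction and lost the threshold, 6 gained it and 4 turned sign. With 1 library left out, the members called numbered 11 to 18 for MK-2206 against control DMSO, 0 to 9 for STL427944, 3 to 5 for FOXM1-KD against control with AraC, 2 to 5 with venetoclax, 0 to 3 for AraC in FOXM1-KD cells and 0 to 3 for the difference of the AraC changes. The NARS2 call with AraC in FOXM1-KD cells became 0 calls with total counts only, with edgeR's filter on low counts and with all 16 libraries in 1 fit, and the CARS1 call of the difference became 0 with all 16 libraries. The cause was not tested. The changes that turned sign were small. MARS2 with venetoclax in control cells ranged from -0.14 to 0.20 with 1 library left out (-0.03 without control DMSO replicate 2), AARS1 with AraC in FOXM1-KD cells ranged from -0.01 to 0.41, and WARS1 in the venetoclax difference from -0.81 to 0.14. With the replicate number as a block, 3 members were called between FOXM1-KD and control with AraC and 5 with venetoclax, as without it. No other comparison was fitted with the block. With 2 libraries a group, a change near 2-fold moves across the threshold with 1 library.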
